A study of Mus musculus with 12 samples.

Results

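The windows described here lie on the higher-coordinate side of the Ets1 promoter on mouse chromosome 9. They were defined by position, as the 10 kb windows that begin at the edge of the viewpoint window or beyond it, out to 1 Mb. The interval itself was chosen with earlier results of these data known. The windows overlap, because they step by 1 kb. Of 996 possible windows the deposited table lists 936, out of 8207 windows listed for this viewpoint and 17305 listed for the 3 viewpoints of the series. They run from 32708001 to 33713000 in the mm10 build and cover the remainder of Ets1 and 4 long noncoding RNA (lncRNA) genes, Gm3331, Gm27162, Gm27166 and Gm32171. Only the first 50 kb belong to a protein-coding gene, so the noncoding stretch begins where Ets1 ends, at 32757820.

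Contacts were measured by 4C-seq, which fixes chromatin with formaldehyde, cuts and religates it, and sequences every fragment joined to 1 chosen site, the viewpoint. The 4 libraries were 2 of embryonic stem (ES) cells and 2 of mouse embryonic fibroblasts (MEFs). The ES cells were of the V6.5 line, which is 1 line of hybrid C57BL/6 and 129 origin, grown in 2i, a medium with a pair of kinase inhibitors that keeps the cells in a naive pluripotent state. The MEFs were prepared from rtTA3-OKSM embryos at E13.5 and grown in DMEM. They were heterozygous for an Oct4-GFP reporter, the OKSM cassette of reprogramming factors (Oct4, Klf4, Sox2 and Myc) and the transactivator rtTA3, which switches the cassette on with doxycycline. No doxycycline is named in their culture condition. No source used here gives the strain of the MEFs. Genotype, culture medium and cell type differ together between the groups and cannot be told apart.

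Ets1 encodes a transcription factor of the ETS family, best known from lymphocytes and endothelial cells and also found in fibroblasts and other mesenchymal cells. A promoter meets nearby chromatin most often, and its contacts thin out with distance. Departures from that decay, as peaks or sudden steps, are how 4C-seq shows preferred partners and limits of a promoter's reach. The question of the comparison was where on this side the Ets1 promoter met chromatin differently in ES cells and in MEFs.

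The first enzyme of the assay, DpnII, cuts at GATC, and a contact can be seen only at a fragment that ends in such a site. RefSeq promoter stretches, 250 bases before to 50 after an annotated start (GRCm38.p6, the assembly of mm10, plus strand), were found for 3 of the 5 genes. The first annotated starts of these lncRNA genes are shown because contact at them is compared below with contact elsewhere in the same genes. Capitals mark GATC.
Gm3331, chr9:32782896-32783195: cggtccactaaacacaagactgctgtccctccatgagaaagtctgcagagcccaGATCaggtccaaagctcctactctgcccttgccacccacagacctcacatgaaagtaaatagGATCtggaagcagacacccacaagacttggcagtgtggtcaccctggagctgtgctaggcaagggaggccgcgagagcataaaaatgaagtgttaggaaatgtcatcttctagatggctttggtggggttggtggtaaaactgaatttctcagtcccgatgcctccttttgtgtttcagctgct
Gm27166, chr9:33031542-33031841: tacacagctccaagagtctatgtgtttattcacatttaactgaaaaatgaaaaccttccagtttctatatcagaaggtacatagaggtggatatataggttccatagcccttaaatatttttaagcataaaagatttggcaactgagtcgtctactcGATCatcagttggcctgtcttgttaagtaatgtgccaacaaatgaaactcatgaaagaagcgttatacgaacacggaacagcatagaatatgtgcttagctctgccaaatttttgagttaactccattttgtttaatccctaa
Gm32171, chr9:33254212-33254511: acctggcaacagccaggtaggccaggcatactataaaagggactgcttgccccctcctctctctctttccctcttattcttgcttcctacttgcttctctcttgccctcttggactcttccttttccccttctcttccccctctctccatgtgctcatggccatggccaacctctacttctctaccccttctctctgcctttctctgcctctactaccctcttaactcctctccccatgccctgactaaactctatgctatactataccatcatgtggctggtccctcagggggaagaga
The motif GATC, which reads the same on both strands, occurred 2 times at Gm3331, 1 time at Gm27166 and 0 times at Gm32171. It occurred in 48.0% of all 32851 promoter stretches of this length. GTAC, the site of the second enzyme Csp6I, was present once in the Gm27166 stretch and in 35.8% of all stretches. A stretch without the motif says only that these letters are not in it, and neighbouring fragments still report on the same 10 kb window.

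Values are counts per 1000 of a library total. The totals recovered from the values were 70629 and 206874 in the first and second ES library and 13629 and 29638 in the first and second MEF library, so 1 count is worth 0.0142, 0.00483, 0.0734 and 0.0337 per 1000. On this side no window is at 0 in an ES library, while 122 are at 0 in MEF replicate 1 and 68 in MEF replicate 2. Each listed window has counts in at least 3 of the 4 libraries, so the weakest contacts were not analysed here. Across the 517 windows that passed the filter on low values, Pearson's r of log2 values was 0.95 between the ES libraries, 0.85 between the MEF libraries and 0.80 to 0.84 between an ES and a MEF library. These windows overlap and are not independent. Whether the replicates were grown as separate cultures is not stated, so the spread that the p-values rest on may be technical.

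Out to 600 kb from the viewpoint, the Ets1 promoter had more contact in MEFs than in ES cells in each 100 kb block. Beyond 600 kb contact was low, and the ES libraries had the higher block means, as they also had on the lower-coordinate side. The whole side held 214 and 211 counts per 1000 in the ES libraries and 309 and 314 in the MEF libraries, summed over windows that do not overlap each other. Both MEF libraries lay above both ES libraries. The ES mean was 212 ± 2.11 and the MEF mean 312 ± 3.51 (SD, n = 2 libraries each), a difference of -99.3. With 2 libraries against 2, an exact permutation test cannot give a two-sided p below 0.333, which is what it gave here.

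The promoter's contacts were also split differently between its 2 sides. Of the counts within 1 Mb on both sides, the higher-coordinate side took 48.5% in ES replicate 1 (95% exact binomial interval 47.9 to 49.1) and 48.6% in ES replicate 2 (48.3 to 48.9). In MEF replicate 1 it took 58.2% (57.0 to 59.3) and in MEF replicate 2 61.4% (60.6 to 62.2). The ES promoter was close to even between its sides, and the MEF promoter leaned toward the noncoding side, with no overlap between the groups. The difference was -11.2 percentage points (exact permutation p = 0.333), and this share does not depend on how libraries are scaled. The intervals cover counting error only, since the labels name no molecular identifiers and PCR copies are not independent molecules.

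**Figure D1:**
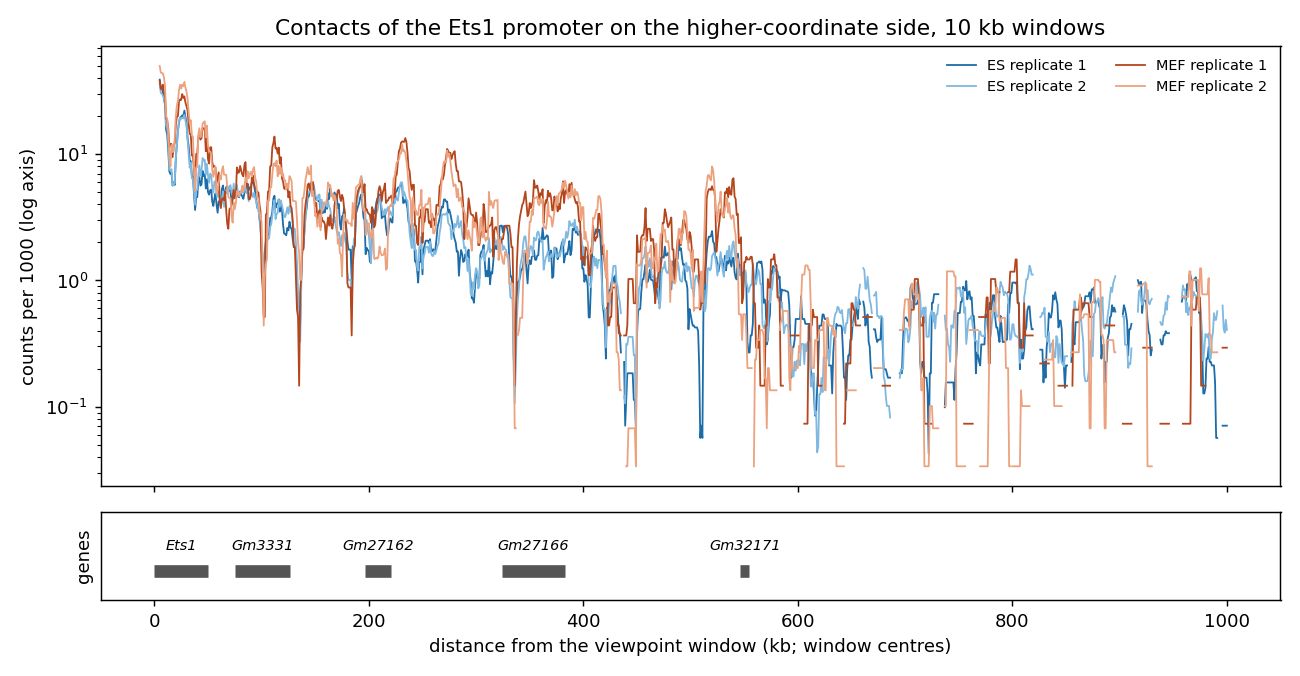
Contact profile of the Ets1 promoter on the higher-coordinate side. The upper panel plots counts per 1000 of the library total (log axis, values of 0 not drawn) at the centre of each listed 10 kb window against distance from the viewpoint window in kb, 1 line per library. The lower panel shows the genes of the interval. MEF lines run above ES lines over much of the first 547 kb and not beyond 600 kb.

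Contact fell with distance in both cell types. In the first 100 kb, mean contact per window was 8.39 and 8.51 per 1000 in the ES libraries and 11.5 and 13.2 in the MEF libraries. From 200 to 300 kb it was 2.69 and 2.70 in ES cells, against 5.57 and 4.63 in MEFs. The block before it, from 100 to 200 kb, held 3.205 and 3.209 in ES cells, against 4.35 and 4.49 in MEFs, so both MEF libraries were no lower at 200 to 300 kb than one block nearer. From 300 to 400 kb the ES libraries had 1.67 and 1.78 and the MEF libraries 3.46 and 3.10. In none of these blocks did the groups overlap.

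Blocks were compared with limma on log2(value + 1), a scale that understates the change of low values. The SE and p of a block rest in part on variance that limma pools over all tested blocks, not only on its own libraries. All 6 blocks out to 600 kb passed the filter and all 6 were called lower in ES cells. Of the 11 blocks tested for the viewpoint 90.9% were called in either direction, 63.6% lower and 27.3% higher in ES cells. The block from 400 to 500 kb passed only through the MEF libraries, with ES values of 0.993 and 0.988. From 500 to 600 kb only ES replicate 1 reached the minimum, at 1.002. Without the filter all 6 were still called lower in ES cells (limma adjusted p from 0.000141 to 0.0211). The log2 difference, ES minus MEF, was -0.49 from 0 to 100 kb (SE 0.10, limma adjusted p = 0.000146) and -0.37 from 100 to 200 kb (SE 0.09, adjusted p = 0.000981). It was largest from 200 to 300 kb, at -0.72 (SE 0.09, limma adjusted p = 3.72e-07), and from 300 to 400 kb, at -0.65 (SE 0.09, adjusted p = 4.23e-07). In linear terms MEFs had 1.89 and 1.91 times the ES contact in these 2 blocks, against 1.46 and 1.38 times in the 2 nearer ones. From 400 to 500 kb and from 500 to 600 kb the log2 differences were -0.41 and -0.46 (limma adjusted p = 4.03e-05 and 1.07e-05), with 1.67 and 1.77 times the ES contact in MEFs.

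Without ES replicate 1 limma called 0 of the 6 blocks (adjusted p from 0.0607 to 0.185, 3 with an unadjusted p under 0.05), and without ES replicate 2 only the blocks from 200 to 400 kb were, while no direction changed. The first 2 blocks also lost their calls with values centred on the median (limma adjusted p = 0.0781 and 0.116) and under quantile normalization (log2 differences -0.08 and -0.05, adjusted p = 0.329 and 0.587), and the other 4 kept theirs. When each library was rescaled to the total of this side, the blocks from 200 to 400 kb remained called and the first 2 blocks turned slightly positive, to 0.01 and 0.07.

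**Figure D2:**
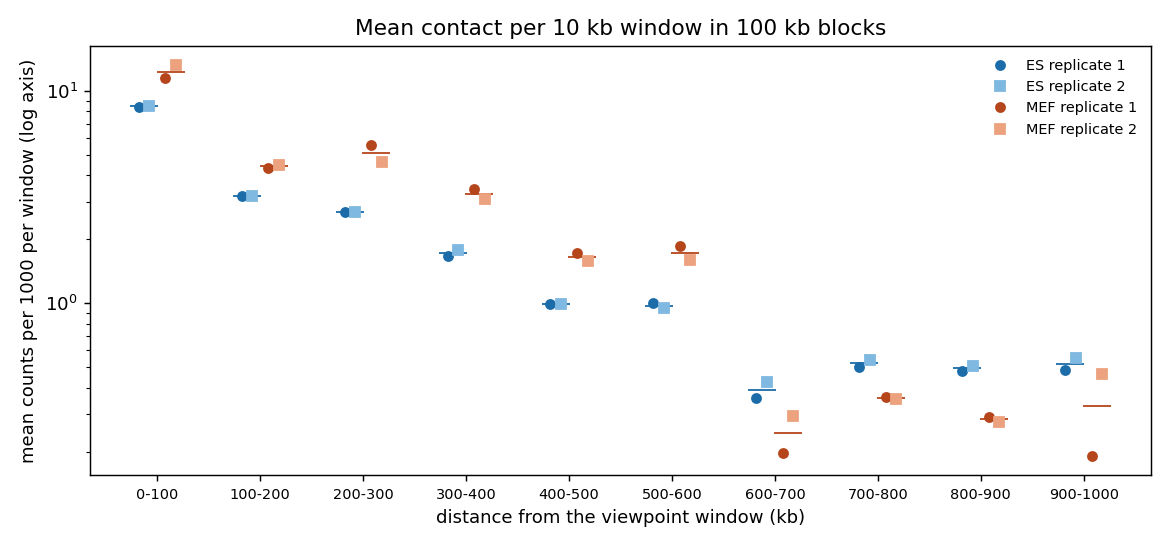
Mean counts per 1000 per 10 kb window (log axis) in 100 kb blocks of distance from the viewpoint window. Points are libraries and bars the mean of each pair. The MEF libraries sit above the ES libraries in the 6 blocks out to 600 kb and below them in the 4 blocks beyond.

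Mean contact dropped in every library from the block at 500 to 600 kb to the next, with a larger fold in the MEF libraries. Mean contact fell from 1.00 to 0.359 per 1000 in ES replicate 1 between the block at 500 to 600 kb and that at 600 to 700 kb, and from 0.948 to 0.424 in ES replicate 2. Over the same step MEF replicate 1 fell from 1.85 to 0.196 and MEF replicate 2 from 1.60 to 0.295. The fold of the step was 2.79 and 2.24 in the ES libraries and 9.43 and 5.45 in the MEF libraries, and both MEF values exceeded both ES values (exact permutation p = 0.333). Without MEF replicate 1 the difference in the log2 step was -1.13 and without MEF replicate 2 it was -1.92, against -1.52 with all libraries.

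Beyond 600 kb the remaining contact was higher in the ES libraries in every block, at low levels. From 700 to 800 kb the ES libraries had 0.500 and 0.543 per 1000 and the MEF libraries 0.362 and 0.354. From 800 to 900 kb they had 0.482 and 0.509 against 0.291 and 0.277. From 900 to 1000 kb they had 0.482 and 0.555 against 0.191 and 0.462. These 4 blocks failed the filter. Tested without it, they had log2 differences of 0.16 to 0.22 that did not pass (limma adjusted p from 0.549 to 0.7999). By window, both ES libraries exceeded both MEF libraries in 127 of 338 listed beyond 600 kb, and the reverse held in 15. Over all 8207 windows listed for the viewpoint these shares were 22.2% and 16.9%. The direction is not particular to this side. From 700 to 1000 kb on the lower-coordinate side the ES block means were 2.93 to 10.5 times those of MEFs, against 1.46 to 1.75 times here.

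The low MEF values rest on few reads. The stretch beyond 600 kb held 106 counts in MEF replicate 1 and 370 in MEF replicate 2, in windows that do not overlap, against 1146 and 3426 in the ES libraries. As a share of the side's counts this was 7.58% and 7.85% in the ES libraries (95% exact binomial intervals 7.17 to 8.02 and 7.60 to 8.11). In the MEF libraries it was 2.51% and 3.97% (intervals 2.06 to 3.03 and 3.59 to 4.39). Of 338 listed windows there, 175 are at 0 in at least 1 MEF library, and each such window has counts in the other 3 libraries, as all listed windows do.

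The stretch from 200 to 600 kb took a larger share of the side's counts in both MEF libraries than in either ES library. It took 30.2% and 30.0% in the ES libraries (95% exact binomial intervals 29.5 to 30.9 and 29.6 to 30.5), and 41.4% and 35.5% in the MEF libraries (39.9 to 42.9 and 34.5 to 36.5). The exact permutation p was 0.333 for this share and for that beyond 600 kb. The share of the first 100 kb was 47.9% and 48.1% in the ES libraries and 43.2% and 48.4% in the MEF libraries, where the groups overlap (exact permutation p = 1). In both ES libraries 90% of the side's counts lay within 550 kb, and in the MEF libraries within 480 and 490 kb.

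**Figure D3:**
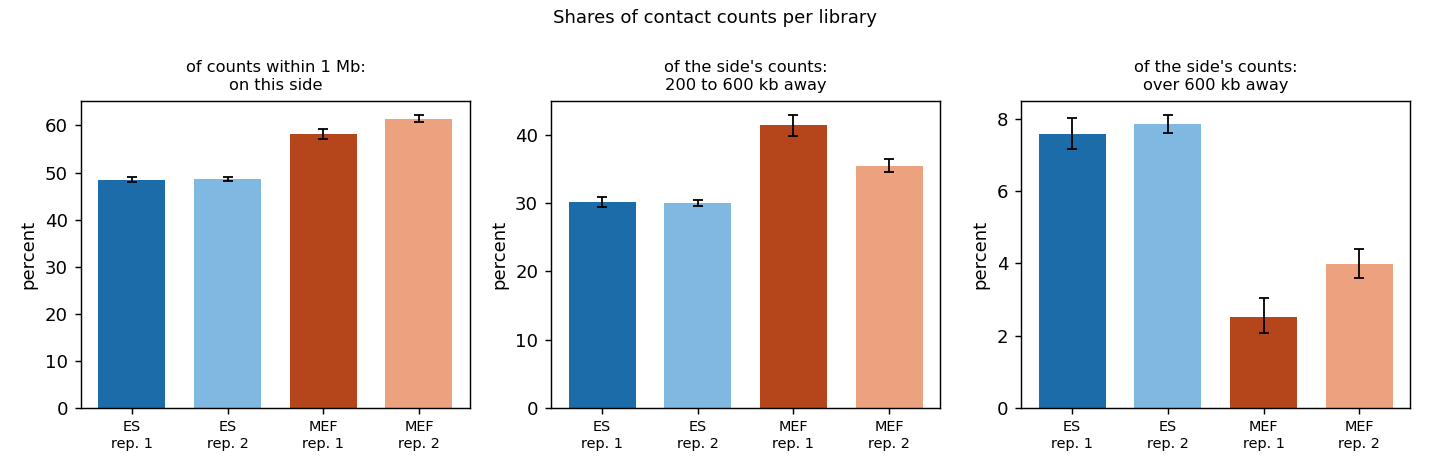
Shares of contact counts in each library, in percent, with 95% exact binomial intervals as error bars. The left panel is the share of counts within 1 Mb that lies on the higher-coordinate side, the middle and right panels the shares of that side's counts found 200 to 600 kb and over 600 kb away. MEF libraries are higher in the first 2 panels and lower in the last.

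At the scale of single windows, 203 of the 517 tested on this side were called by limma at an adjusted p of 0.05, 200 toward MEFs and 3 toward ES cells. Of all 1051 windows tested for the viewpoint 39.4% were called, and 39.5% of those off this side, so the share called here, 39.3%, is that of the background. The direction was not: 24.0% of all tested windows and 9.74% of those off this side were called higher in MEFs, against 38.7% here. In the other direction the shares were 15.4% of all, 29.8% of those off this side and 0.580% here. The median log2 difference was -0.51 on this side, -0.20 over all tested windows and 0.28 over those off it. Of the 314 windows not called, 235 were also below 0. In 367 of the 936 listed windows both MEF libraries exceeded both ES libraries, and in 173 the reverse held, against 16.9% and 22.2% of all listed windows and 14.0% and 22.6% of those off this side.

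Calls are made against 0, and the number depended on the filter and the scaling. A window that passed the filter only through 1 cell type could be called only toward that cell type. Without the filter 145 of 936 windows were called by limma, all higher in MEFs. With values centred on the median of the tested windows 144 windows were called higher in MEFs and 5 in ES cells, and with each library rescaled to the total of this side 50 and 40. The last scaling removes the difference in the side's total, and what it leaves is a difference in shape along the side. Without ES replicate 1 the count fell to 47 and without ES replicate 2 to 61, all higher in MEFs.

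**Figure D4:**
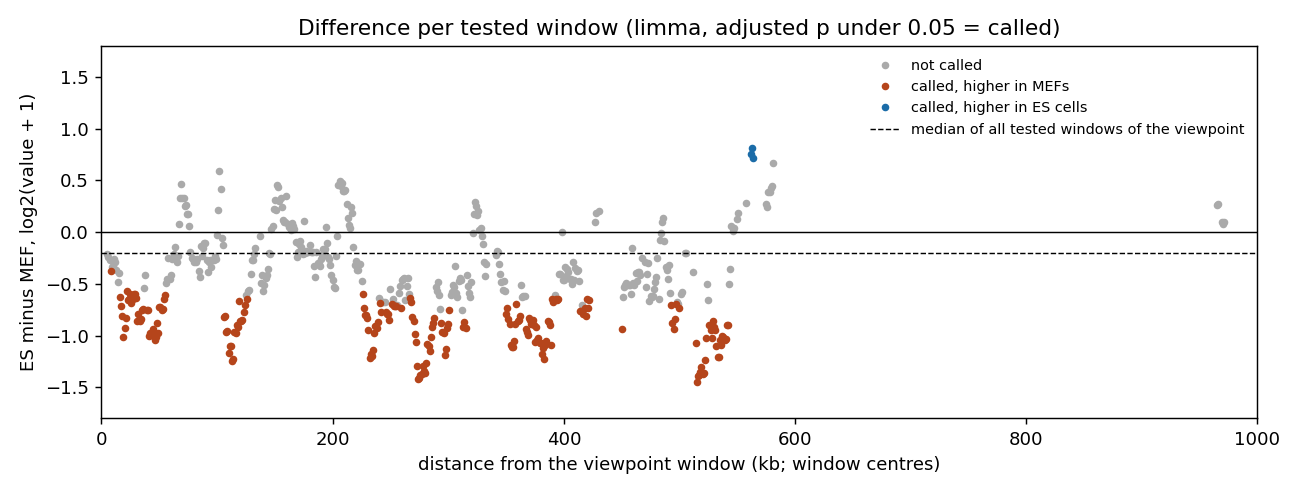
Difference between ES cells and MEFs in each tested 10 kb window, as log2(value + 1), ES minus MEF, against distance from the viewpoint window in kb. Colours mark windows called by limma at an adjusted p of 0.05, and the dashed line is the median of all 1051 tested windows, -0.20. Called windows higher in MEFs form separate stretches out to 547 kb, and the 3 called higher in ES cells lie just past them.

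The 200 windows higher in MEFs formed 6 separate stretches. The first, from 32711001 to 32768000, covered the body of Ets1 from 3 kb past the viewpoint window to just beyond the gene. Its window of smallest p, 32749001 to 32759000, spans the higher-coordinate end of Ets1 and held 6.70 and 8.86 counts per 1000 in ES cells, against 16.0 and 17.9 in MEFs. Both MEF libraries were well above both ES libraries. The means were 7.78 ± 1.53 and 17.0 ± 1.36 (SD, n = 2 each), and log2 values differed by -1.04 (SE 0.19, limma adjusted p = 0.00295). Under quantile normalization this window was not called (adjusted p = 0.116). Of 50 windows over Ets1 on this side, which overlap each other, 38 were called higher in MEFs and none in ES cells. Called higher in MEFs were 38.7% of all tested windows on this side and 24.0% of those of the viewpoint. Those directly beside the viewpoint window were not called, as at 32708001, where ES cells had 39.0 and 36.0 and MEFs 38.0 and 50.0.

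The next stretch, from 32809001 to 32839000, covered the later portion of Gm3331, a lncRNA gene of 51.3 kb. It ran past the end of the gene at 32834460. Its window of smallest p, 32817001 to 32827000, held 4.06 and 3.35 per 1000 in ES cells, against 11.2 and 8.91 in MEFs, with no overlap. That is 3.71 ± 0.50 against 10.1 ± 1.64 (SD, n = 2 each), and log2 values differed by -1.23 (SE 0.22, limma adjusted p = 0.00295). At the first annotated start of Gm3331, shown above, the window centred on it held 4.63 and 4.78 in ES cells, against 4.48 and 3.68 in MEFs, a log2 difference of 0.17 (limma adjusted p = 0.548). The 2 other annotated starts had -0.29 each (limma adjusted p = 0.345 and 0.291). The gene's contact excess in MEFs was therefore called in its higher-coordinate portion and not at its starts, and the difference between these places was not tested.

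The locus of Gm3331 as a whole, the gene with 10 kb on each side, had 3.63 and 3.66 per window in ES cells, against 5.12 and 5.24 in MEFs (log2 difference -0.41, SE 0.06, limma adjusted p = 0.00303). Of 13 gene loci tested for the viewpoint 92.3% were called, 38.5% lower and 53.8% higher in ES cells. On this side 3 of 4 were called, all lower in ES cells. The call at Gm3331 was lost under quantile normalization (log2 difference -0.03, limma adjusted p = 0.782) and when ES replicate 1 was left out (0.0549), and the difference turned to 0.04 after rescaling to the total of this side.

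After the stretch at Gm3331 came 99 listed windows in a row, spanning 32830001 to 32938000, of which none was called. Mean contact there was 3.29 and 3.28 in ES cells, against 3.62 and 3.71 in MEFs. Of 96 windows tested by limma 0 were called, 2 had an unadjusted p under 0.05, and edgeR and DESeq2 called 0 as well. This stretch contains Gm27162, a lncRNA gene of 24.9 kb, where 0 of 34 windows were called by limma (1 with an unadjusted p under 0.05) and 0 by edgeR or DESeq2. It also contains the second-highest ES window among those at least 50 kb apart and away, 32849001 to 32859000, with 5.62 and 6.07 in ES cells, against 5.87 and 8.13 in MEFs (limma adjusted p = 0.449).

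The Gm27162 locus with its 10 kb flanks held 3.45 and 3.71 in ES cells, against 5.41 and 4.54 in MEFs, with log2 values differing by -0.38 (SE 0.10, limma adjusted p = 0.0244). Without the flanks the difference was -0.08 (adjusted p = 0.677), so the call rested on the flanks, the higher-coordinate one of which the next stretch of called windows enters. It was also lost with a 5 kb flank (limma adjusted p = 0.0872), without the filter (0.0814), under quantile normalization (0.791) and without ES replicate 1 (0.0884), and turned to 0.07 after rescaling to the total of this side.

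The longest of the 6 stretches, 99 kb from 32929001 to 33028000, overlapped no annotated gene and lies between Gm27162 and Gm27166. It held the highest window beyond 50 kb in both cell types, 32934001 to 32944000, with 5.83 and 5.99 in ES cells, against 12.6 and 12.0 in MEFs (log2 difference -0.94, limma adjusted p = 0.00341). So the same window ranked first in both, at 2.08 times the ES level in MEFs. In ES cells it hardly stood out, with a mean of 5.91 against 5.85 in the window at 32849001. Its window of smallest p, 32977001 to 32987000, held 3.44 and 2.86 in ES cells, against 10.6 and 9.55 in MEFs, or 3.15 ± 0.41 against 10.1 ± 0.77 (SD, n = 2 each). Both MEF libraries were far above both ES libraries, 3.203-fold in the means (log2 difference -1.42, SE 0.21, limma adjusted p = 0.00189). This window rested on 243 and 592 counts in the ES libraries and 145 and 283 in the MEF libraries.

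Gm27166, a lncRNA gene of 59.0 kb that starts 324 kb from the viewpoint window, was likewise called at its end and not at its start. The difference between these places was not tested, and the end window was picked for its small p. The window centred on its annotated start held 2.72 and 2.06 in ES cells, against 2.13 and 1.55 in MEFs, values that overlap between the groups (log2 difference 0.26, limma adjusted p = 0.441). Its higher-coordinate end, in the window 33084001 to 33094000, held 2.07 and 2.13 in ES cells, against 6.09 and 5.97 in MEFs. The replicates of each group lay close together there while the groups differed 2.87-fold (2.10 ± 0.05 against 6.03 ± 0.08, SD, n = 2 each; log2 difference -1.18, limma adjusted p = 0.00326). The stretch around it ran from 33053001 to 33135000, and 34 of 62 tested windows over the gene were called, all higher in MEFs. These windows overlap, and the share called higher in MEFs was 38.7% on this side and 24.0% over the viewpoint. The locus held 1.70 and 1.79 in ES cells, against 3.63 and 3.15 in MEFs (log2 difference -0.67, SE 0.08, limma adjusted p = 0.00176), and it was called under every alternative tried for loci.

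A single window at 33153001, with no gene, was also called, with 0.368 and 0.541 in ES cells, against 2.27 and 1.35 in MEFs (limma adjusted p = 0.0147). This window passed the filter only through the MEF libraries, so a call could go only toward MEFs. Without either MEF library, or with a minimum value of 2, it was not tested. With no filter it was barely called (limma adjusted p = 0.0491). It lost its call without ES replicate 1 (0.322) or ES replicate 2 (0.216), and with edgeR scaled by TMM (0.0681) and DESeq2 (0.0715). The last stretch, from 33196001 to 33255000, ended at the start of Gm32171, a lncRNA gene of 8.06 kb. Its window of smallest p, 33224001 to 33234000, lies before the gene, 516 kb from the viewpoint window. It held 2.02 and 1.62 in ES cells, against 5.21 and 7.46 in MEFs, or 1.82 ± 0.29 against 6.33 ± 1.59 (SD, n = 2 each; log2 difference -1.36, SE 0.25, limma adjusted p = 0.00306). This MEF level was above the MEF mean per window of 4.42 at 100 to 200 kb, but it is that of 1 window picked for its small p. As block means, MEFs had 1.73 at 500 to 600 kb against that 4.42. The MEF mean of the single window at 32815001, 107 kb away, was 11.1.

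At Gm32171 itself the MEF libraries lay far apart. Its locus held 2.30 in MEF replicate 1 and 1.28 in MEF replicate 2, and 1.09 and 1.18 in the ES libraries (log2 difference -0.36, limma adjusted p = 0.142). Without MEF replicate 2 it was called, at -0.63 (limma adjusted p = 0.0103). The window centred on its annotated start held 1.22 and 1.10 in ES cells, against 1.98 and 0.540 in MEFs, where the spread of the MEF pair covered both ES values. The 5 annotated lncRNA starts belong to only 3 genes, with none for Gm27162, and those of Gm3331 lie in overlapping windows. Of the 5 windows centred on them limma called 0, where it called 39.4% of all tested windows of the viewpoint. None had an unadjusted p under 0.05, and edgeR and DESeq2 called 0. Whether starts differ from other places was not tested, and so few windows could not show it.

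Immediately past Gm32171 the sign changed. In 3 overlapping windows from 33265001 to 33277000, with no gene, ES cells were higher. The window 33266001 to 33276000 held 1.39 and 1.22 in ES cells, against 0.293 and 0.337 in MEFs, a 4.14-fold difference (log2 difference 0.81, SE 0.22, limma adjusted p = 0.0155) that rested on 4 and 10 counts in the MEF libraries. The window passed the filter only through the ES libraries, so a call could go only toward ES cells. The call was lost without the filter (limma adjusted p = 0.141) and under quantile normalization (0.166), and without either ES library the window failed the filter. Of 378 windows listed from 560 kb outward, only 12 passed the filter. Among these limma called 0, 1 had an unadjusted p under 0.05, and edgeR and DESeq2 called 0.

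The asymmetry between the sides was tested directly by subtracting, within each library, the log2 value on the lower-coordinate side from that at the same distance on the higher-coordinate side. Of 564 distances tested, limma called 273 (48.4%), of which 257 (45.6%) leaned more to the noncoding side in MEFs and 16 (2.84%) more to it in ES cells. Up to 100 kb the calls went both ways, 20 and 15, with a median of 0.03. At 97 kb the side-to-side difference was -2.09 in ES cells and -4.29 in MEFs, so the MEF promoter leaned further to the other side there (difference 2.20, SE 0.33, limma adjusted p = 0.00143). From 200 kb outward they went 1 way, with 54 of 100 distances called at 200 to 300 kb, 79 of 98 at 300 to 400 kb, 60 of 94 at 400 to 500 kb and 31 of 48 at 500 to 600 kb. The median difference, ES minus MEF, was -0.99, -1.66, -0.98 and -1.19 in these ranges. These values join changes on both sides. From 200 to 500 kb the block log2 differences on the lower-coordinate side were 0.28, 0.97 and 0.69, against -0.72, -0.65 and -0.41 here. At 300 to 400 kb the lower-coordinate side held 2.38 and 2.16 per window in ES cells, against 0.669 and 0.665 in MEFs. In that range and the next the larger log2 change was on the lower-coordinate side.

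At 269 kb, for example, the noncoding side held 3.44 and 2.86 in ES cells and the other side 2.45 and 3.00, values that overlap between the sides. In MEFs the noncoding side held 10.6 and 9.55 and the other side 2.05 and 1.96. The difference of the side-to-side differences was -1.73 (SE 0.35, limma adjusted p = 0.00313). At 516 kb it was -1.88 (SE 0.39, limma adjusted p = 0.00335), where the other side held 0 and 0.202 in the MEF libraries. Without ES replicate 1 the count of called distances was 74. Without ES replicate 2 limma called 0 of 526 distances, with 188 at an unadjusted p under 0.05.

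**Figure D5:**
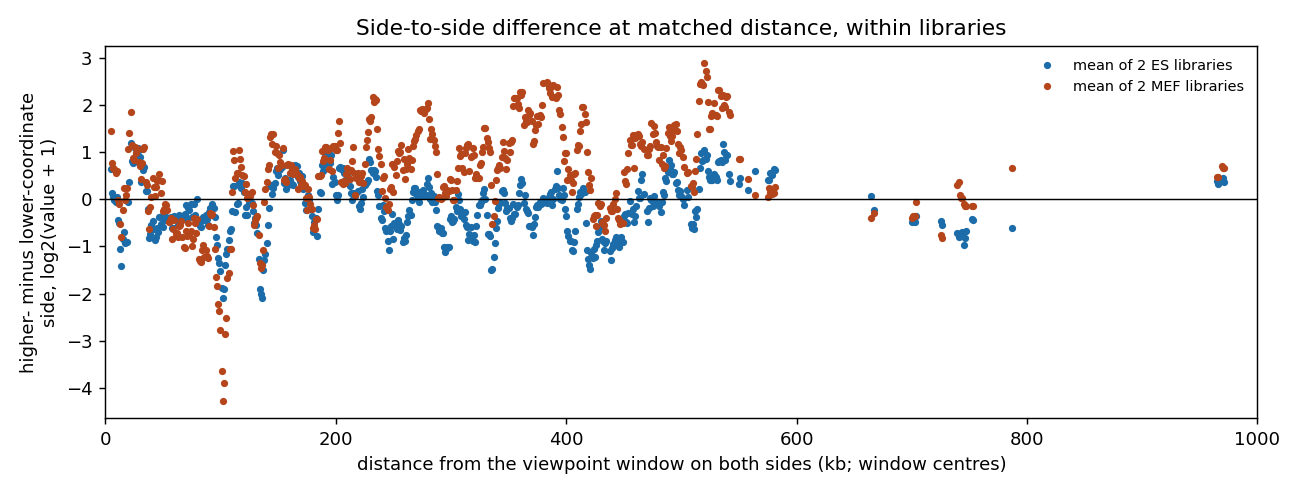
Side-to-side difference of contact at matched distances, as log2(value + 1) on the higher-coordinate side minus that on the lower-coordinate side, averaged over the 2 ES and the 2 MEF libraries, against distance in kb. Between 200 and 550 kb the MEF points lie above the ES points at most distances. Near 100 kb both dip below 0, the MEF points further.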

How the data were processed

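The 4C-seq libraries of the Ets1 promoter, 2 of ES cells and 2 of MEFs, were grouped by sample title. Per the submitters' processing notes, Bowtie 1.0.0, edgeR and the mm10 build were used, with no roles stated. No source used here says how windows were counted. The deposited table is CPM by its name, in 10 kb windows every 1 kb. All values (100% in each library, within 0.01 count) were whole multiples of 1 step. Dividing 1000 by the step gives an integer, read here as the library total, so values are counts per 1000. This scale is worked out, not stated.

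The viewpoint was placed at the window of highest mean, 32698001 to 32708000. Windows, means of 100 kb blocks and gene loci with a value of at least 1 in 2 libraries were compared by limma 3.58.1 (R 4.3.3, eBayes with trend) on log2(value + 1). Tests were two-sided, and p-values were adjusted over the whole table (Benjamini-Hochberg, 0.05). The trend of the matched-distance test used the mean level of both sides. Loci under 10 kb from the viewpoint window, here Ets1, were not tested as loci. As alternatives, edgeR 4.0.16 and DESeq2 1.42.0 were run on the recovered counts. The fit was checked on simulated counts. Called windows of 1 direction starting no more than 20 kb apart were joined, and the window of smallest p was named. All genes of the interval (GRCm38.p6 gene table) and the highest windows at least 50 kb apart are also named. The interval and the tests were chosen with earlier results of these data known. In each replicate pair the counts differed by more than sampling noise (chi-square 797 on 93 degrees of freedom for ES, 627 on 76 for MEFs). Figures used matplotlib 3.10.9 in Python 3.11.15.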

Additional observations from a re-analysis of the deposited data

How the results depend on the processing

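The count of 203 called windows was 104 with quantile normalization, 96 with edgeR scaled by TMM, 83 with DESeq2, 16 of 52 among windows that do not overlap, 90 after rescaling to the total of the side (chosen after seeing the data) and 47 to 277 when 1 library was left out. It was within 1.5 times of 203 in the other 10 alternatives. The 6 called blocks became 4 with median centring and 4 with quantile normalization, both planned and both ending the calls of the first 2 blocks. They became 2 after that rescaling and 0 to 5 without 1 library. The 3 called loci became 1 with quantile normalization, 1 after the rescaling and 1 to 4 without 1 library. After the rescaling the first and second blocks turned to 0.0103 and 0.0718, Gm3331 to 0.0376 and Gm27162 to 0.0664. The 273 called distances became 22 of 59 where windows do not overlap and 0 to 340 without 1 library. The difference in side share was -9.63 to -12.8 percentage points. Leaving out a library leaves the lone one to be assumed as variable as the other group.

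The replicate numbers are shared by the groups but carry no stated pairing, and deviations of same-numbered libraries did not correlate (r = -0.009 over all tested windows, -0.13 on this side). With the replicate number as a block 203 windows, 6 blocks and 3 loci were called, Gm27162 missed the threshold (adjusted p = 0.0501), Gm32171 passed (0.0408) and 164 distances were called. Depth limits the MEF values beyond 600 kb, where 3 counts are 0.220 per 1000 in MEF replicate 1.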
